A study of Rattus norvegicus with 65 samples.

Results

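Liver RNA of 3 rats given clofibrate under the short label was compared with liver RNA of the 3 control rats of the nongenotoxic set. The 6 arrays were taken from a series of 65 by their titles. All rats were male Sprague-Dawley rats 6 weeks old, fed freely, and the titles call the 3 arrays of a group biological replicates. The short arrays carry a label of 3 hours and the clofibrate long arrays one of 72 hours, while the untreated controls carry no time. The protocol text has the repeated groups dosed 3 times and mentions autopsy a day after dosing, without a dose for clofibrate or a route, so the groups are called short and long here. The other groups used were 1,4-dioxane short, DL-ethionine short and clofibrate long, with 3 rats each, which like clofibrate are labelled nongenotoxic carcinogens. Values are log2 signals of Affymetrix probe sets, each gene read through its single-symbol probe set with the highest mean, so a difference of 1 is a doubling. Signals of different genes are not set against each other.

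Clofibrate is a fibrate, a class of lipid-lowering drugs whose acid form activates the nuclear receptor PPAR alpha. With its partner RXR, the receptor binds repeated hexamers in DNA and raises genes for taking up fatty acids and oxidizing them in mitochondria, peroxisomes and the endoplasmic reticulum. In rat liver sustained activation enlarges the peroxisome compartment and leads to tumours without direct damage to DNA. The comparison asks which of these genes, and which others, had moved under the short label.

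Several arrays stood apart from their groups, by the root mean square log2 distance over the 10648 genes tested, averaged over the other arrays of a group. Clofibrate short 2 lay at 0.332 from its own group, against 0.273 and 0.281 for rats 1 and 3. Control 1 lay at 0.318 from its group, against 0.24 and 0.241 for the others. The array labelled ethionine short 1 lay at 0.259 from the clofibrate short rats and at 0.388 from its own group, and dioxane short 1 lay at 0.338 from its group against 0.291 and 0.308. Counts are given with and without these arrays. Calls lost without clofibrate short 2 are mostly marked where they come up, but those lost without control 1 are not marked for every gene. RNA integrity was read as the signal of 3' minus 5' control probe sets. It was 0.41, 0.62 and 0.66 for Gapdh in clofibrate short and 0.91, 0.63 and 0.50 in the control, and 2.45 to 3.02 against 2.96 to 3.19 for Actb (exact two-sided permutation p = 0.5 and 0.3, where 3 against 3 rats allow 0.1 at the lowest).

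Of 10648 genes tested, 322 passed at a Benjamini-Hochberg adjusted p under 0.05 in limma (3.02%), 172 higher (1.62%) and 150 lower (1.41%) with clofibrate. Of these, 81 differed by more than a log2 difference of 1. The 3 clofibrate and 3 control rats did not overlap in 309 of the 322 genes, beside 2787 of all genes tested (26.2%). The median difference over all genes was -0.01. The count rested on few arrays: 47 genes passed without clofibrate short 2, 62 without control 2, 79 without control 3, 198 without clofibrate short 1 and 390 without control 1. In all, 36 genes passed whichever of the 6 rats was left out. With the spread taken from the 6 arrays alone 151 genes passed, and with both control groups of the series pooled after quantile normalization 793 did.

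**Figure D1:**
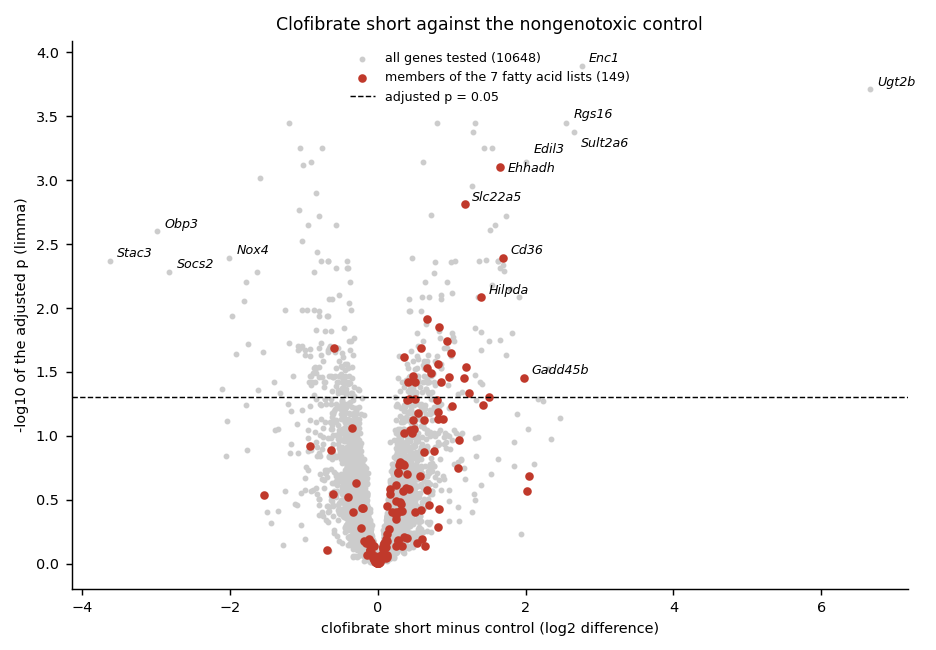
Log2 difference between clofibrate short and control (x axis) against the -log10 of the limma adjusted p (y axis) for the 10648 genes tested, with the 149 tested members of 7 fatty acid lists in red and the dashed line at an adjusted p of 0.05. Of the red points above the line 23 lie on the right and 1 on the left, while Ugt2b lies alone at 6.66.

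A minority of the fatty acid genes rose under clofibrate. Across 7 lists of fatty acid and PPAR alpha target genes, 149 of 168 written members were tested, and 23 rose (15.4%, beside 1.62% of all genes), 1 fell and 125 did not pass. Their median difference was 0.25, and 113 of the 149 lay above 0. The mean signal of the 149 genes was 10.88 to 11.15 in the clofibrate rats and 10.64 to 10.68 in the controls, with no overlap. In ethionine short it was 10.71 to 10.94, also above every control and overlapping clofibrate. In dioxane short it was 10.68 to 10.85, below every clofibrate rat. The list median against the shared control was 0.08 in each of these 2 groups. Many of the clofibrate calls were lost with 1 rat left out. Without clofibrate short 2, 3 members passed, without control 2, 3, and without control 3, 7. Without control 1, 20 were higher and 3 lower, but not the same members. Pex11a, Acot4, Crat, Cpt1b, Acot12, Cidec, Aqp7 and Mlycd then lost the call (limma adjusted p 0.0682 to 0.166). Ehhadh, Slc22a5 and Cd36 were the 3 members that passed whichever rat was left out.

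**Figure D2:**
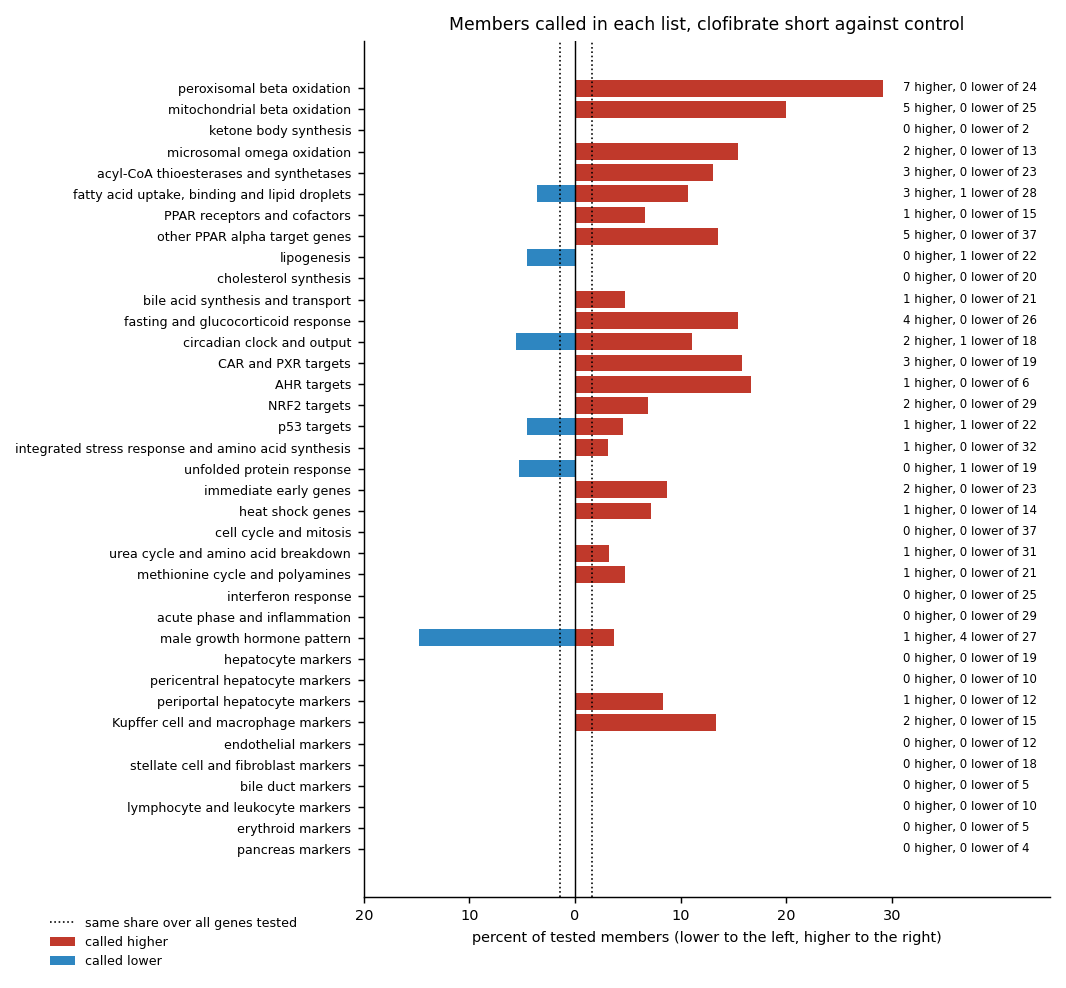
Share of the tested members of each of 37 gene lists that were called higher (red, to the right) or lower (blue, to the left) in clofibrate short against control, with the counts at the right and dotted lines at the shares over all genes tested. Peroxisomal beta oxidation has the longest bar, with 7 of 24 members higher.

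Peroxisomal beta oxidation shortens very long fatty acids and dicarboxylic acids. The list of that name also holds genes around the pathway, such as Pex11a, Pex16, Nudt7, Crat and Acot4. Of the 24 tested genes in the list 7 rose (29.2%, beside 1.62% of all genes) and none fell. Ehhadh, the bifunctional enzyme of the pathway, was at 12.71, 13.57 and 13.06 in the clofibrate rats and at 11.13, 11.52 and 11.70 in the controls. The groups did not overlap, and the difference was 1.66 ± 0.28 (SE; adjusted p = 0.000785), a 3.15-fold rise. Ehhadh was also above the shared control in ethionine short (1.02, adjusted p = 0.0254), but did not pass in dioxane short (0.58, adjusted p = 0.224). Pex11a, a peroxisomal membrane protein that drives division of the organelle, was at 9.36, 11.53 and 9.71 against 8.46, 9.23 and 9.20. Rat 2 stood far above the others, and the difference of 1.24 ± 0.35 (adjusted p = 0.0464) was 0.57 without that rat (adjusted p = 0.441). Acot4, a thioesterase that frees dicarboxylic acids from coenzyme A, was at 11.20, 11.95 and 11.32 against 10.23, 10.35 and 10.42 (1.16 ± 0.31, adjusted p = 0.0355). Every clofibrate rat lay above every control for Acot4, as they did for the remaining members that passed. These were Nudt7, which hydrolyses coenzyme A in peroxisomes (0.99 ± 0.24), Crat, the carnitine acetyltransferase (0.97 ± 0.26), Decr2, the peroxisomal dienoyl-CoA reductase (0.59 ± 0.14), and Pex16, a peroxisome assembly protein (0.47 ± 0.12), with adjusted p of 0.0204 to 0.0349. Acot4, Nudt7, Crat, Decr2 and Pex16 did not pass without clofibrate short 2 (adjusted p 0.130 to 0.269).

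The list of mitochondrial beta oxidation also holds genes around the pathway, such as Slc22a5 and Acot2. Of its 25 tested genes 5 rose (20%, beside 1.62% of all genes) and none fell. Slc22a5, the carnitine transporter of the cell membrane, was at 10.67, 11.01 and 10.44 against 9.60, 9.55 and 9.42, with no overlap and little spread. Its difference was 1.18 ± 0.21 (adjusted p = 0.00154), and it held with any rat left out (adjusted p up to 0.0286). Acot2, a mitochondrial thioesterase, was at 11.28, 12.48 and 11.31 against 10.57, 10.46 and 10.47 (1.19 ± 0.30, adjusted p = 0.0287). Eci1, which moves double bonds so that unsaturated chains can be oxidized, differed by 0.86 ± 0.23, and Hadhb, the thiolase subunit of the trifunctional protein, by 0.41 ± 0.11 (adjusted p = 0.0377 and 0.0379). Without clofibrate short 2, Acot2, Eci1 and Hadhb had adjusted p of 0.252, 0.187 and 0.202. Cpt1b, the muscle form of carnitine palmitoyltransferase, was at 6.33, 8.88 and 6.69 against 5.70 to 5.84, so rat 2 carried most of its difference of 1.51 ± 0.43 (adjusted p = 0.0497, 0.447 without that rat). Cpt1a, the liver form that admits long chains into mitochondria, was at 13.27, 13.25 and 12.96 against 12.87, 12.79 and 12.93. Although the rats did not overlap, its difference of 0.30 ± 0.17 did not pass (adjusted p = 0.389). Probe sets of the gene disagreed, since 1 of the 2 passed in a fit over all probe sets, where neither of the 2 of Eci1 did. Neither of the 2 ketone body genes tested passed.

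Microsomal omega oxidation, which starts at the far end of the chain in the endoplasmic reticulum, had 2 of 13 tested genes higher. Cyp2j4, a P450 that oxidizes polyunsaturated fatty acids, differed by 0.83 ± 0.19 (adjusted p = 0.0141), and Aldh3a2, the fatty aldehyde dehydrogenase, by 0.36 ± 0.09 (adjusted p = 0.024). Without clofibrate short 2 neither passed (adjusted p = 0.12 and 0.132). Cyp2j4 was also above the shared control in ethionine short (0.72, adjusted p = 0.0215), but did not pass in dioxane short (0.59, adjusted p = 0.0608). Aldh3a2 passed in neither group. Cyp4a1, the fatty acid omega-hydroxylase most used as a marker of fibrate action in rat liver, was at 13.04, 13.40 and 13.10 against 12.57, 12.49 and 12.60. The groups did not overlap, as in 26.2% of all genes tested, and the difference of 0.63 ± 0.20 did not pass (adjusted p = 0.0746). In ethionine short Cyp4a1 was at 13.23, 12.84 and 12.94, above every control and overlapping clofibrate. Dioxane short was at 12.40 to 12.63. Cyp4a3, of the same family, was at 13.03 to 13.16 against 12.71 to 13.26, a difference of 0.03 ± 0.24 that changed sign when some rats were left out. Cyp4a2 and Acaa1b were not analysed here.

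Among 23 tested thioesterases and acyl-CoA synthetases 3 rose, Acot2, Acot4 and Acot12, the last a cytosolic acetyl-CoA hydrolase (0.82 ± 0.21, adjusted p = 0.0272, 0.203 without clofibrate short 2). For Acot1, a cytosolic thioesterase, 1 rat stood apart. It was at 9.43 in clofibrate short 2, at 5.00 and 4.75 in rats 1 and 3 and at 4.19 to 4.47 in the controls. Its difference of 2.05 ± 0.86 did not pass (adjusted p = 0.207).

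Of 28 tested genes of fatty acid uptake, binding and lipid droplets 3 rose and 1 fell. Cd36, which carries long-chain fatty acids across the cell membrane, was at 8.62, 9.38 and 9.36 against 7.90, 7.12 and 7.24. The difference was 1.70 ± 0.33 (adjusted p = 0.00407), and it passed with any rat left out (adjusted p up to 0.0461). Hilpda, a droplet protein that inhibits lipolysis, was at 9.73, 11.44 and 9.96 against 8.75, 8.96 and 9.22 (1.40 ± 0.30, adjusted p = 0.00825). Hilpda was again highest in rat 2, and its adjusted p was 0.12 without it. Cidec, which fuses droplets, rose by 0.66 ± 0.17 (adjusted p = 0.0296), and Abhd5, the activator of the triglyceride lipase Pnpla2, fell by 0.59 (SE 0.14, adjusted p = 0.0207). Without clofibrate short 2 their adjusted p was 0.305 and 0.112. Abhd5 was also below the shared control in dioxane short (-0.95, adjusted p = 0.000186) and ethionine short (-0.56, adjusted p = 0.0181). Cidec passed in neither group. Plin2, the main coat protein of liver droplets, was at 13.35, 13.69 and 13.46 against 12.63, 13.04 and 13.12. Plin2 did not overlap between the groups, and its difference of 0.57 ± 0.24 did not pass (adjusted p = 0.207).

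Of 37 other target genes 5 rose: Gadd45b, a stress and growth arrest gene (1.98 ± 0.53), Slc25a42, the mitochondrial coenzyme A carrier (0.93 ± 0.22), Aqp7, a glycerol channel (0.72 ± 0.19), Txnip, an inhibitor of glucose uptake (0.66 ± 0.15), and Mlycd, which breaks down malonyl-CoA (0.50 ± 0.14). Their adjusted p ranged from 0.0121 to 0.0377, and from 0.114 to 0.304 without clofibrate short 2. Against the shared control Txnip and Aqp7 were also higher in dioxane short (0.71 and 0.65, adjusted p = 0.0041 and 0.036). In ethionine short they did not pass (-0.07 and 0.43). Gadd45b, Slc25a42 and Mlycd passed in neither group. The secreted and regulatory targets did not pass in clofibrate short. Pdk4, the kinase that shuts off pyruvate oxidation, was at 11.04, 13.51 and 12.33 against 10.13, 11.70 and 11.77 (1.09 ± 0.43, adjusted p = 0.179). Vnn1, a pantetheinase, was at 11.46, 11.93 and 11.60 against 10.76, 10.68 and 10.26, without overlap (1.10 ± 0.38, adjusted p = 0.107). Creb3l3, a liver transcription factor, differed by 0.39 ± 0.16, Angptl4, an inhibitor of lipoprotein lipase, by 0.33 ± 0.19, and Fgf21, a fasting hormone, by 0.64 ± 0.74 (adjusted p = 0.199, 0.385 and 0.732). Of 15 receptors and cofactors 1 rose, Lpin2, a lipin of triglyceride synthesis (1.52 ± 0.28, adjusted p = 0.00244). Lpin2 was also above the shared control in dioxane short (1.28, adjusted p = 0.0065) and ethionine short (1.74, adjusted p = 0.000509). Clofibrate short differed from the mean of these groups by 0.01. Ppara itself lay below the filter of log2 6.22, at 5.07, 5.18 and 5.33 against 4.63, 4.72 and 4.80, and was not tested.

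**Figure D3:**
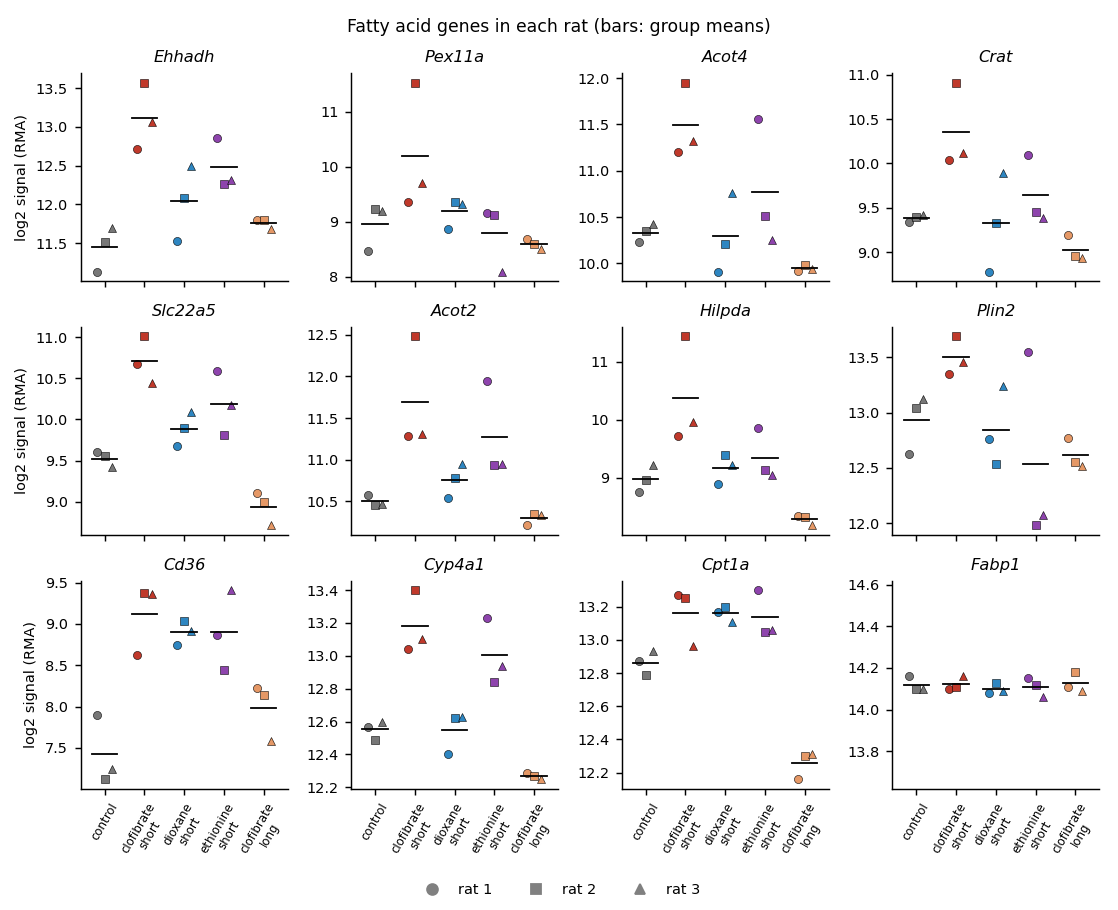
Log2 signal (y axis) of 12 fatty acid genes in each rat of the control, clofibrate short, dioxane short, ethionine short and clofibrate long groups, with symbols for rats 1 to 3 and bars at the group means. For Ehhadh the clofibrate short rats sit at 12.71 to 13.57 and the controls at 11.13 to 11.70, while for Fabp1 the clofibrate short rats sit at 14.10 to 14.16, as do the controls.

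Fabp1, the abundant fatty acid binding protein of hepatocytes and a textbook PPAR alpha target, was at 14.10, 14.11 and 14.16 against 14.16, 14.10 and 14.10, a difference of 0.00 ± 0.17. It lay at 14.06 to 14.18 in every rat of the groups used here. The highest signals on the nongenotoxic arrays were 15.42 to 15.56, and whether a rise could show at the level of Fabp1 was not tested. The receptor pair binds a direct repeat of AGGTCA with 1 base between the copies. Searched on both strands with the looser hexamer AGGNCA, windows of 250 bases before and 50 after the start site held such a repeat in 0.437% of 27457 RefSeq promoters (0.0619% with AGGTCA). Among the measured fatty acid list members 131 have a promoter in the table, and Fabp1 alone held a match (0.763%), on the reverse strand at -77 to -65 from the start. None of the 20 promoters of members that rose held one. The upstream 250 bases of Fabp1, which has the match in capitals and a difference of 0.00, and of Ehhadh, which rose with any rat left out and has none, are printed from RefSeq (GRCr8), Fabp1 from chr4:104749090-104749339 and Ehhadh from chr11:92746159-92746408, both on the plus strand.
Fabp1: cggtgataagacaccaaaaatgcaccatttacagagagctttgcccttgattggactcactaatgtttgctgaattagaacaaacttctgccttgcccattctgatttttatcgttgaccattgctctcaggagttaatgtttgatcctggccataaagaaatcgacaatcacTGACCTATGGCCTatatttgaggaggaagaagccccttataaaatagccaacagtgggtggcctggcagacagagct
Ehhadh: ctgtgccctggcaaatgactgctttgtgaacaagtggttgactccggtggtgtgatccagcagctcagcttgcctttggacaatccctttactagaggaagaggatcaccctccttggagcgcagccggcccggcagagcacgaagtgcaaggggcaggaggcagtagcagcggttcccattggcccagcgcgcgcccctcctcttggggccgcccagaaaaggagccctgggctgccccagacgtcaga
A match is a run of letters and not a measured site, and the window leaves out distant enhancers and introns.

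Clofibrate short was then set against the other compounds with the same label, a comparison that uses no control rat. Against the mean of dioxane short and ethionine short 0 of 10648 genes passed in limma (0%), with 1255 at an unadjusted p under 0.05 and a lowest adjusted p of 0.0949. So none of the 322 genes called against the control was called between the compounds, and both comparisons share the clofibrate rats. The result turned on the array labelled ethionine short 1. Without it 270 genes were higher in clofibrate (2.54%) and 241 lower (2.26%), without dioxane short 3 the count was 70, without clofibrate short 1 it was 8, and it was 0 without each of the other 6 rats. Without both ethionine short 1 and dioxane short 1, a choice made after seeing the data, 282 passed.

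The 2 other compounds were also taken apart, after seeing the data. Against dioxane short 0 genes passed (0%), with 1097 at an unadjusted p under 0.05 and a lowest adjusted p of 0.0705. Against ethionine short 116 passed (1.09%), and 993 without ethionine short 1 (9.33%).

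For the fatty acid genes, leaving out that array changed the number of calls more than the median. None of the 149 passed against the mean of the other compounds, where their median difference was 0.15, and the median was 0.16 without ethionine short 1. Without ethionine short 1, 17 were higher in clofibrate (11.4%, beside 2.54% of all genes) and 1, the transferrin receptor gene Tfrc, was lower. Among the 17 were Plin2 (1.07, adjusted p = 3.97e-05), Slc25a42 (0.99, adjusted p = 0.00022), Mlycd (0.62, adjusted p = 0.00029), Pex11a (1.31, adjusted p = 0.0127), Acot4 (1.16, adjusted p = 0.00624), Crat (0.98, adjusted p = 0.00913), Hilpda (1.24, adjusted p = 0.00457), Slc22a5 (0.76, adjusted p = 0.0104) and Ehhadh (0.95, adjusted p = 0.0196). With that array in, the differences were 0.81 for Plin2, 0.78 for Slc25a42 and 0.50 for Mlycd, each with an adjusted p of 0.125. They were 0.87 for Crat, 0.66 for Slc22a5 and 0.85 for Ehhadh. Leaving the array out changed the SE of Plin2 from 0.21 to 0.14 and that of Crat from 0.22 to 0.23. Cd36 was not among the 17, with a difference of 0.21 without that array (adjusted p = 0.821).

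The values by rat were these. Plin2 was at 13.55 in ethionine short 1 and at 11.98 and 12.07 in ethionine 2 and 3, while the clofibrate rats were at 13.35 to 13.69. Acot4 was at 11.56 in ethionine short 1, within the clofibrate range of 11.20 to 11.95, and at 10.51 and 10.25 in ethionine 2 and 3, near the control range of 10.23 to 10.42. Acot1 was at 7.62 in ethionine short 1, and besides clofibrate short 2 no other rat of these 5 groups exceeded 5.03. Of the 23 fatty acid genes that rose, ethionine short 1 lay nearer to the clofibrate than to the control mean in 20, ethionine 2 and 3 in 6 and 8, and dioxane 1, 2 and 3 in 5, 9 and 16. The array labelled ethionine short 1 therefore goes against its group for these genes, and whether its label is right was not tested.

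Against dioxane short the fatty acid genes had values above 0 but no call. Ehhadh was at 11.53, 12.08 and 12.50 in the dioxane rats, all below the lowest clofibrate rat (1.07, adjusted p = 0.124). Slc22a5 was at 9.68, 9.89 and 10.09 there, also below every clofibrate rat (0.81, adjusted p = 0.124), and Hilpda at 8.90 to 9.39 (1.21, adjusted p = 0.112). Slc25a42 had the lowest adjusted p of the 149 (0.94, adjusted p = 0.0961). In all, 108 of the 149 were above 0 with a median of 0.14. Cd36 was at 8.74 to 9.04 in dioxane and 8.44 to 9.41 in ethionine short, and each of these groups was 1.48 above the shared control (adjusted p = 0.00689 and 0.00705). Cpt1a was at 13.11 to 13.20 in dioxane and 13.05 to 13.30 in ethionine, within or beside the clofibrate range.

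Clofibrate short was next set against clofibrate long. Of all genes tested 148 were higher in clofibrate long than in clofibrate short (1.39%) and 233 lower (2.19%), or 381 in all, 81 without clofibrate short 2 and 209 to 229 without 1 of the long rats. Of the 149 fatty acid genes 30 were lower under the long label, 3 were higher and the others did not pass. Ehhadh was at 11.80, 11.80 and 11.68 in the long rats, near the control range (long minus short -1.35, adjusted p = 0.00404). Slc22a5 was at 9.10, 8.99 and 8.71, below every control rat (long minus short -1.77, adjusted p = 6.43e-06), and Hilpda at 8.34, 8.33 and 8.18 (-2.09, adjusted p = 9.36e-05). Cpt1a, which did not pass under the short label, was at 12.16 to 12.31 under the long one (-0.90, adjusted p = 0.00166). Against the control 15 genes passed in clofibrate long (0.141%), of the fatty acid lists 1, Hacl1, which cleaves 2-hydroxy fatty acids in peroxisomes and was lower. Of the 322 genes called under the short label, 149 were called in the opposite direction between long and short, a count that shares the short rats with the call itself.

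The 12 genes with the highest called differences were mostly not fatty acid genes. Ugt2b, a glucuronosyltransferase gene, was at 13.14, 13.17 and 13.44 in clofibrate short and at 6.81, 6.85 and 6.10 in the controls, a difference of 6.66 ± 0.92 (adjusted p = 0.000195). Its signal was 13.30 to 13.62 in every dioxane short, ethionine short and clofibrate long rat, so the 3 controls were the low ones. Sult2a6, a hydroxysteroid sulfotransferase, was at 12.94, 12.60 and 13.10 against 11.51, 9.68 and 9.49 (2.65 ± 0.41, adjusted p = 0.000423). Sult2a6 was also at 12.57 to 13.04 in the other short groups, level with clofibrate.

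Enc1, an actin-binding protein gene, was at 10.24, 12.20 and 10.37 against 8.50, 7.97 and 8.05 (2.76 ± 0.36, adjusted p = 0.000127). Rgs16, a regulator of G protein signalling that responds to fasting, was at 10.03, 11.71 and 10.85 against 8.24, 8.04 and 8.68 (2.55 ± 0.38, adjusted p = 0.000359). Both were highest in clofibrate short 2, and the other short groups, with Enc1 at 9.35 to 10.75 and Rgs16 at 9.33 to 10.12, lay above every control and overlapped clofibrate. In a fit over all probe sets 2 of the 4 of Enc1 passed. Edil3, an integrin ligand, was at 7.31, 7.40 and 7.63 against 5.29, 5.50 and 5.53 (2.01 ± 0.33, adjusted p = 0.000723). Ugt2b, Sult2a6, Enc1, Rgs16, Edil3 and Ifrd1, a transcriptional coregulator (1.74 ± 0.31), passed with any rat left out.

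The remaining highest genes depended on 1 or more rats. Cyp1a1, the classic target of the aryl hydrocarbon receptor, was at 8.40, 9.62 and 7.79 against 5.93, 6.67 and 6.26 (2.31 ± 0.60, adjusted p = 0.0298). It was at 7.86 to 9.81 in dioxane and 7.25 to 8.72 in ethionine short. Gadd45a and Gadd45b, growth arrest genes, were highest in clofibrate short 2, at 11.89 and 10.09 (1.81 ± 0.42 and 1.98 ± 0.53). Abcc3, an efflux pump for bile salts and conjugates, differed by 1.74 ± 0.43, Spsb4, a ubiquitin ligase adaptor, by 1.91 ± 0.41, and Tcim by 1.79 ± 0.38. Their adjusted p lay between 0.00704 and 0.0351 and reached 0.114 to 0.304 with 1 rat left out. For none of the 12 did the clofibrate rats lie outside all 6 rats of the other short groups.

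**Figure D4:**
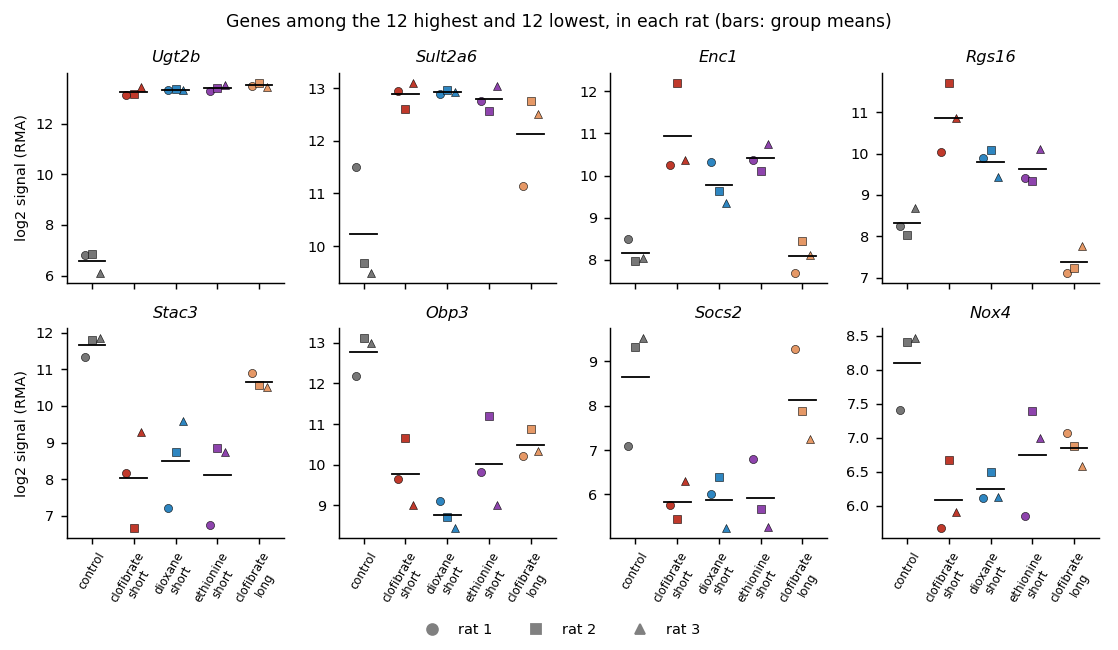
Log2 signal (y axis) of 4 genes among the 12 highest (top row) and 4 among the 12 lowest (bottom row) in each rat of 5 groups, with bars at the group means. Ugt2b separates the 3 controls (6.10 to 6.85) from every other rat, and for Stac3, Obp3, Socs2 and Nox4 the dioxane and ethionine short rats overlap those of clofibrate short.

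The 12 lowest genes included targets of growth hormone signalling. Stac3, known from muscle excitation coupling, was at 8.16, 6.66 and 9.28 against 11.33, 11.79 and 11.86 (-3.63 ± 0.71, adjusted p = 0.00428). Obp3, a urinary binding protein gene of the male liver, was at 9.64, 10.66 and 9.02 against 12.17, 13.12 and 13.00 (-2.99 ± 0.55, adjusted p = 0.00251). Socs2, a feedback inhibitor of growth hormone signalling, was at 5.76, 5.45 and 6.30 against 7.09, 9.33 and 9.53 (-2.82 ± 0.57, adjusted p = 0.0052). Control 1 was the lowest control for each of these, and for Socs2 it lay nearer to the clofibrate rats than to controls 2 and 3.

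Nox4, an NADPH oxidase, was at 5.67, 6.68 and 5.91 against 7.41, 8.41 and 8.47 (-2.01 ± 0.39, adjusted p = 0.00407). Rprm, a p53-induced arrest gene, was at 4.15, 4.18 and 4.77 against 4.85, 7.34 and 7.23 (-2.11 ± 0.59, adjusted p = 0.043), so control 1 came close to the clofibrate rats there too. Slc6a6, the taurine transporter (-1.97 ± 0.44), Exph5 (-1.92 ± 0.47), LOC102549203 (-1.81 ± 0.39), Rtp3 (-1.79 ± 0.37), Npas2, a clock factor (-1.75 ± 0.42), and Tubb2a, a beta tubulin (-1.64 ± 0.33), fell with adjusted p of 0.0052 to 0.0229. Mid1ip1, an activator of acetyl-CoA carboxylase, was at 9.16, 7.37 and 8.93 against 10.07, 10.16 and 10.08 (-1.62 ± 0.45, adjusted p = 0.0438). Without ethionine short 1, Mid1ip1 was also lower than in the other short groups (-1.45, adjusted p = 0.0253), the one gene of the 12 of which that holds. Obp3 and Nox4 passed with any rat left out, and the other 10 did not.

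In the list of genes with a male growth hormone pattern 4 of 27 fell, beside 1.41% of all genes, and 1 rose. The number that fell was 1 without clofibrate short 2, control 2 or control 3, 2 without clofibrate short 1 or 3, and 6 without control 1. Beside Obp3 and Socs2 these were Hsd3b5, a male-specific steroid reductase (12.06, 12.16 and 11.91 against 12.89, 13.19 and 13.28; -1.08 ± 0.26, adjusted p = 0.0212), Mup5, a major urinary protein (-0.87 ± 0.22, adjusted p = 0.0296), and Sult2a6, which rose. Mup5 did not pass with any 1 of the 6 rats left out, and Hsd3b5 passed only without control 1. Obp3 and Mup5 are related genes whose probes may share transcripts. The list median was -0.15 in clofibrate short, -0.37 in dioxane short and -0.16 in ethionine short against the same controls.

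Of 26 fasting and glucocorticoid response genes 4 rose (15.4%, beside 1.62% of all genes), with a list median of 0.41. Without clofibrate short 2 none of the 26 was higher, and without control 2 or control 3 the count was 2. Tat, tyrosine aminotransferase, was at 10.94, 12.12 and 10.57 against 9.97, 9.31 and 9.24 (1.71 ± 0.35, adjusted p = 0.00515). Igfbp1, a fasting-induced binding protein, was at 12.63, 14.05 and 13.20 against 11.37, 11.94 and 11.90 (1.55 ± 0.32, adjusted p = 0.00665). Klf15, a gluconeogenic regulator, was at 11.41, 11.71 and 11.18 against 10.88, 9.27 and 9.31 (1.62 ± 0.32, adjusted p = 0.00428), and Cebpd, an acute regulator of transcription, differed by 1.00 ± 0.23 (adjusted p = 0.0158). Without clofibrate short 2 the adjusted p was 0.0956 for Tat, 0.103 for Igfbp1, 0.0504 for Klf15 and 0.183 for Cebpd. Tat was at 10.52 to 11.37 in dioxane and 10.93 to 11.90 in ethionine short, overlapping clofibrate short, and the list medians against the shared control were 0.48 for dioxane and 0.44 for ethionine. Tat also stands in the list of urea cycle and amino acid breakdown, 1 of 31.

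For 2 clock genes, chosen after their values were seen, control 1 stood apart from controls 2 and 3. Bmal1, a core activator of the clock, was at 5.39, 5.21 and 5.30 in clofibrate short and at 5.20, 7.97 and 8.07 in the controls. Dbp, an output gene, was at 10.48, 10.49 and 10.12 against 9.93, 6.91 and 7.23. Clofibrate long was at 8.05 to 8.38 for Bmal1 and at 6.00 to 6.52 for Dbp. Control 1 lay nearer to clofibrate short for both genes, and controls 2 and 3 lay nearer to clofibrate long.

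Of 18 clock genes tested 2 rose, Tef (0.89 ± 0.22, adjusted p = 0.0207) and Hlf (0.86 ± 0.22, adjusted p = 0.0297), and Npas2 fell, while Bmal1 (-1.78, adjusted p = 0.0575) and Dbp (2.34, adjusted p = 0.105) did not pass. None of the 18 passed without clofibrate short 2, control 2 or control 3. Without control 1, 6 were higher and 3 lower, with Bmal1 at an adjusted p of 0.000877 and Dbp at 0.0207. The clock list's median was 0.39 in clofibrate and dioxane short alike and 0.78 in ethionine short. The controls have no time label, and the part of the time of day in the other results was not tested.

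**Figure D5:**
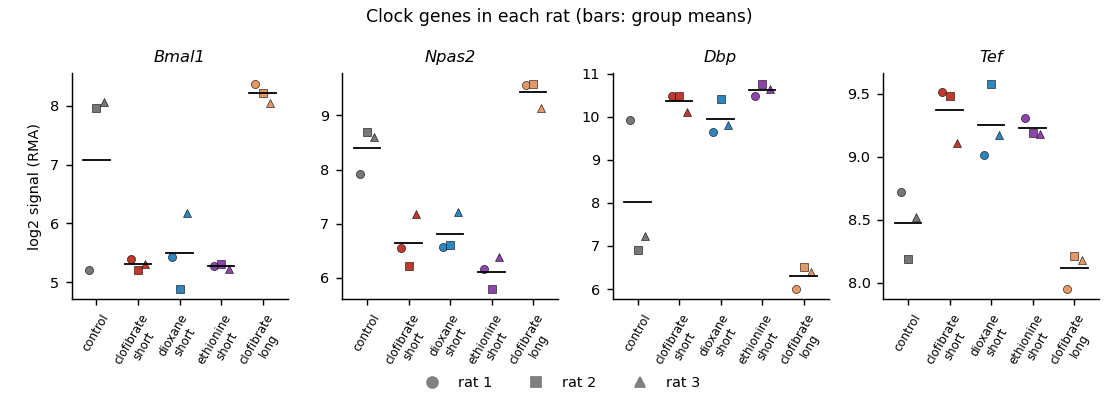
Log2 signal (y axis) of Bmal1, Npas2, Dbp and Tef in each rat of 5 groups, with symbols for rats 1 to 3 and bars at the group means. Control 1, the circle at the left of each panel, lies with the short groups for Bmal1 (5.20) and Dbp (9.93), while controls 2 and 3 lie nearer to clofibrate long there; for Tef control 3 (8.52) lies beside control 1 (8.72).

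Some drug metabolism genes rose, in lists so small that 1 member is already above the 1.62% called higher over all genes. Of 19 targets of the receptors CAR and PXR 3 rose: Abcc3, Ugt2b1, a glucuronosyltransferase (12.99, 12.49 and 13.07 against 11.57, 11.67 and 11.46; 1.29 ± 0.20, adjusted p = 0.000423), and Nr1i2, PXR itself (10.22, 10.53 and 10.08 against 9.51, 9.50 and 9.67; 0.72 ± 0.13, adjusted p = 0.00186). Ugt2b and Ugt2b1 belong to 1 family of closely related genes, so their probes may share transcripts. Ugt2b1 was at 12.63 to 13.03 in the other short groups as well. In dioxane short Abcc3 was at 7.95 to 8.70 and Nr1i2 at 9.84 to 10.37, both overlapping clofibrate short. In ethionine short they were at 7.82 to 8.14 and 9.60 to 10.05, below every clofibrate rat. The median of the CAR and PXR list against the shared control was 0.39 in clofibrate, 0.38 in dioxane and 0.28 in ethionine short. Abcc3 also stands in the bile acid list, 1 of 21. Of 6 AHR targets Cyp1a1 rose. Of 29 NRF2 targets 2 rose, Abcc3 and Gsta3, a glutathione transferase (1.40 ± 0.34, adjusted p = 0.0212). Gsta3 was at 9.73 to 10.43 in dioxane and 10.05 to 10.20 in ethionine short, overlapping clofibrate at 10.03 to 10.26. Ugt2b1 and Nr1i2 passed with any rat left out. With 1 rat left out, Abcc3 and Gsta3 passed only without control 1, and Cyp1a1 only without clofibrate short 3.

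These stress lists had 1 or 2 members called each, and in lists of this size 1 member is already above the 3.02% called over all genes. Zfp36, which destabilizes cytokine transcripts (1.32 ± 0.30, adjusted p = 0.0143), and Ccn2, a matricellular growth factor (1.65 ± 0.39, adjusted p = 0.0177), were the 2 of 23 immediate early genes that rose, and both were highest in clofibrate short 2, without which neither passed (adjusted p = 0.168 and 0.187). Single members rose of the p53 targets (Gadd45a, with Rprm lower, of 22), the amino acid stress list (Slc3a2, 0.78 ± 0.22, of 32), the heat shock genes (Hspd1, 0.23 ± 0.07, of 14) and the polyamine list (Odc1, 0.75 ± 0.20, of 21). Calr, a chaperone of the endoplasmic reticulum, fell (-0.39 ± 0.10, of 19 genes of the unfolded protein response, 3 of which lay above 0). Slc3a2, Hspd1, Odc1, Calr, Gadd45a and Rprm did not pass without clofibrate short 2 (adjusted p 0.159 to 0.333). Mid1ip1 was the 1 of 22 lipogenic genes that fell. No gene passed among 20 of cholesterol synthesis, 37 of the cell cycle, 25 of the interferon response and 29 of the acute phase.

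Among the liver cell type markers 2 macrophage genes and 1 periportal gene passed. Alb, the hepatocyte marker, was at 14.77 to 14.81 against 14.76 to 14.84, and 0 of 19 hepatocyte markers passed (median -0.04). Of 15 Kupffer cell and macrophage markers all 15 lay above 0 with a median of 0.41 (0.06 in dioxane and 0.05 in ethionine short), and C1qb (10.60, 10.52 and 10.48 against 10.01, 9.78 and 10.21; 0.53 ± 0.14, adjusted p = 0.0293) and C1qc (0.55 ± 0.15, adjusted p = 0.0368) rose. Over all genes 5075 of 10648 lay above 0. Neither C1qb nor C1qc passed without clofibrate short 1, clofibrate short 2 or control 2. In dioxane short C1qb was at 10.32 to 10.50, overlapping clofibrate, and C1qc at 10.24 to 10.43, below it. The genotoxic controls, of a set that appears normalized apart, were at 10.50 to 10.65 for C1qb and 10.52 to 10.61 for C1qc. Those levels are close to clofibrate short and above the nongenotoxic controls. The 12 endothelial markers had a median of 0.30, with 9 above 0. The mean signal of the 15 macrophage markers was 9.97 to 10.14 with clofibrate and 9.47 to 9.80 in the nongenotoxic controls, without overlap. In whole liver, more cells of a type and more RNA per cell cannot be told apart, and the part of these cells in the other results was not tested. Of 12 periportal markers Hsd17b13, a droplet protein of hepatocytes, rose (0.38 ± 0.10, adjusted p = 0.0366; 0.114 without clofibrate short 2). None passed among 10 pericentral, 12 endothelial, 18 stellate cell, 5 bile duct, 10 leukocyte, 5 erythroid and 4 pancreas markers.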

How the data were processed

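Each rat's liver RNA was run on its own Affymetrix array. The authors deposited log2 values, standardized by RMA according to the design text (version not given in the sources used here), after leaving out 1 failed array. RMA corrects background, normalizes by quantiles and shrinks low differences. Value ranges differ between the sets, so each appears normalized apart. Of 31099 probe sets, 20826 have 1 gene symbol in the platform annotation, 436 several and 9780 none, and 57 controls were left out. Each of 14217 genes takes its probe set with the highest mean. The fit used limma 3.58.1 in R 4.3.3 with 1 mean per group over 41 arrays of the genotoxic and nongenotoxic sets (27 residual and 3.97 prior degrees of freedom), plain eBayes, two-sided tests and Benjamini-Hochberg adjustment over 10648 genes above log2 6.22 in at least 2 arrays. P-values set a difference against the spread between rats within groups, and the number of arrays limits precision. That spread is taken per gene from all groups of the 41 arrays, not from the compared rats alone. In a simulation of this comparison where 200 among 10648 genes were given a change, the fit found 91% of those moved by log2 1 and 99% of those moved by log2 2, with 13 false calls. The simulated noise was normal and independent, with the same SD for a gene in every group and no outlying array. The simulation therefore cannot show how often calls are right in the real arrays, where single rats stood apart. The members and the 37 gene lists were chosen with earlier results of these data known. Named are the 12 highest and 12 lowest called genes without overlap, up to 5 called members of each list, 20 fixed PPAR alpha genes and genes said to be chosen later. H4cl1, Bmal1, Dbp, Tfrc, Hacl1 and Alb were named after their values were seen. For the comparison with the other short compounds the rule named none.
Other settings tried were the unfiltered table, a filter at log2 8.15, averaged probe sets, trend and robust eBayes, quantile normalization, fewer groups, pooled controls, a replicate block and leaving out rats. Same-numbered clofibrate and control rats deviated with correlations of 0.035, 0.034 and -0.061, and differently numbered ones with -0.066 to 0.07. Whether the numbers pair the rats cannot be told from these values, and the main fit does not pair them. Promoter sequences come from RefSeq.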

Additional observations from a re-analysis of the deposited data

Results flagged for a closer look

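Among the 12 highest genes, the 12 lowest genes and the fixed PPAR alpha genes, the effect of clofibrate differed between the short and the long label for 21, by the limma test of clofibrate long minus clofibrate short in log2 units with Benjamini-Hochberg adjustment. Among the fatty acid genes the long value was lower for Cpt1a (-0.90, adjusted p = 0.00166), Ehhadh (-1.35, adjusted p = 0.00404), Cyp4a1 (-0.91, adjusted p = 0.00651), Acot2 (-1.39, adjusted p = 0.00696), Cd36 (-1.14, adjusted p = 0.0456), Plin2 (-0.89, adjusted p = 0.0305), Pdk4 (-1.53, adjusted p = 0.0392), Creb3l3 (-0.61, adjusted p = 0.0227) and Pex11a (-1.61, adjusted p = 0.00687). Among the 12 genes with the highest short difference it was lower for Enc1 (-2.84, adjusted p = 1.37e-05), Rgs16 (-3.50, adjusted p = 2.6e-06), Spsb4 (-1.71, adjusted p = 0.0125), Gadd45a (-2.08, adjusted p = 0.00359) and Ifrd1 (-1.85, adjusted p = 0.00062). Among the 12 with the lowest short difference it was higher for Stac3 (2.63, adjusted p = 0.0301), Socs2 (2.31, adjusted p = 0.0171), Rprm (2.61, adjusted p = 0.00871), Slc6a6 (2.81, adjusted p = 0.000225), Rtp3 (1.57, adjusted p = 0.0113), Npas2 (2.78, adjusted p = 0.000142) and Tubb2a (2.56, adjusted p = 2.17e-05). All these differences use the 3 clofibrate short rats that chose the genes, and without clofibrate short 2 the count of genes called between the labels over all genes was 81 against 381. The long and short rats also differed in clock genes, with Npas2 at 9.13 to 9.59 in the long and 6.22 to 7.17 in the short rats, and its part in these results was not tested.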

How the results depend on the processing

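The count of 322 genes against the control was 281 to 447 with no filter, a stricter filter, the mean of probe sets, trend and robust eBayes, quantile normalization, the nongenotoxic set alone or a replicate block (281). It was 151 in the compared groups alone, 793 with both controls pooled, 47 to 390 with 1 rat left out and 150 without both clofibrate short 2 and control 1. The fatty acid members called were 24, 21 to 29 under the same settings (21 with the replicate block), 15 in the compared groups alone, 43 with both controls, 3 to 24 with 1 rat left out and 7 without both rats. Against the other short compounds 0 genes passed under every setting of the filter, scaling, fit or block, 0 to 511 with 1 rat left out and 282 without ethionine short 1 and dioxane short 1, and of the fatty acid members 0, 0 to 18 and 13. Clofibrate long minus short gave 381 calls, 334 to 478 under most settings and 358 with the replicate block, 227 in the compared groups alone, 81 to 428 with 1 rat left out and 141 without clofibrate short 2 in the nongenotoxic set alone. Of 66 named genes called against the control 52 lost the call without clofibrate short 2, 49 without control 2 and 41 without control 3, and 9 under the block. No called gene reversed. Of uncalled genes, with 1 rat left out Cyp4a3 ranged from -0.14 to 0.13 and Fabp1 from -0.02 to 0.02. Cyp4a3 was at -0.01 without clofibrate short 3, -0.14 without control 1 and -0.12 without clofibrate short 2 and control 1, Fabp1 at -0.02 without clofibrate short 3 and -0.01 without control 2 or control 3, and Pdk4 at -0.05 without clofibrate short 2 and control 1. The causes were not tested.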

Other observations

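Ugt2b fell into a low and a high level across the 41 arrays of the genotoxic and nongenotoxic sets, which appear to be normalized apart. It lay below log2 9 in the 3 nongenotoxic controls (6.10, 6.85 and 6.81), in 1 genotoxic control (8.14, the other 2 at 13.38 and 13.30) and in 1 rat of 2-AAF short (7.91), and at 12.83 or above in the rest. The low level was thus also seen in a treated rat. In the comparison that uses no control rat, clofibrate short differed from the mean of the other short groups by -0.13 (adjusted p = 0.979, limma).

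H4cl1, a histone H4 gene, was at 10.63 and 10.47 in ethionine short 2 and 3 and at 8.13 in dioxane short 1, but at 5.70 in ethionine short 1 and at 4.90 to 5.44 in the clofibrate short and control rats. It was chosen after its values were seen.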
